A study of Mus musculus with 2 samples.

Results

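Lrg1-intermediate alveolar type 2 (AT2) cells were barcodes rich in Sftpc RNA with a middling level of Lrg1, and they numbered 898 of the 6983 barcodes of 2 mouse lung libraries. The NAPH library held 750 of them and the Control library 148. A barcode was taken when, per 10000 of its unique molecular identifiers (UMIs), Sftpc was at least 500, Scgb1a1 below 1000 and the sum of Foxj1, Ccdc153 and Tmem212 below 10. The sum of Areg and Sprr1a had to be below 5 and Mki67 with Top2a below 3 raw UMIs. Barcodes that met these limits are called Sftpc-gated cells, 2407 in NAPH and 1785 in Control. Among them Lrg1 from 5 to below 20 per 10000 marked the Lrg1-intermediate cells, Lrg1 below 5 the Lrg1-low cells and Lrg1 of 20 or more the Lrg1-high cells. The members were chosen by their measured Sftpc, Lrg1 and other gate genes, so the levels of those genes are a description, and every other gene was read from the same cells that Lrg1 sorted.

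AT2 cells sit in the corners of the alveolus, secrete the lipid and proteins of surfactant and renew the alveolar epithelium after damage. They also take part in lung defence through secreted lipocalin, lysozyme and complement proteins and through the alarmin interleukin-33. Lrg1 encodes a secreted leucine-rich glycoprotein that in the liver is one of the acute phase proteins, whose genes are induced by interleukin-6 and related cytokines through the factor STAT3.

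The cells came from lungs of adult C57BL/6 mice, were purified by flow cytometry as Epcam-positive epithelium and were counted with a droplet-based 3′ kit. One library, NAPH, followed an injury that the labels name by that abbreviation, the other is Control, and no allele or transgene is named for either. How much was given, how long before sampling and to how many mice is not stated in the labels. Each group is 1 library, so no difference could be set against replicates, none was tested, and what is described is these libraries. The range in parentheses after a ratio or a share is an exact 95% interval, Poisson or binomial, that covers counting error only.

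The NAPH library held 3685 barcodes and the Control library 3298, with medians of 9417 and 8303.5 UMIs. The lowest barcodes had 3514 and 4212 UMIs. The libraries had 14 barcode sequences in common, none of them among the Lrg1-intermediate cells. Barcodes with the highest doublet scores (109 in NAPH and 87 in Control, from Scrublet) were kept. In NAPH they numbered 35 of 750 Lrg1-intermediate, 13 of 693 Lrg1-low and 28 of 964 Lrg1-high cells. In Control they numbered 1 of 148, 31 of 1613 and 0 of 24. Barcodes with at least 3 UMIs over 6 immune genes, Ptprc among them, numbered 12 of 750 in NAPH and 0 of 148 in Control.

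The AT2 label was checked on genes that the gate did not use. Lamp3, of the lamellar body membrane, stood in Lrg1-intermediate cells at 1276 UMIs per 1000000 (CPM, from summed UMIs) in NAPH and 1370 in Control, against 61.0 and 19.9 in Scgb1a1-rich airway secretory barcodes of the same libraries. Sftpa1, a surfactant protein gene, stood at 31151 CPM in NAPH and 30803 in Control, against 1079 and 397 in Ptprc-positive barcodes. Of the given markers, Napsa, an aspartic protease that matures surfactant protein, stood at 2157 CPM in NAPH and 1783 in Control members, against 328 and 251 in Ptprc-positive barcodes. S100g, a calcium-binding protein gene, stood at 2937 and 2588 CPM, against 142 and 56.2 in airway secretory barcodes. The label held on these genes in each library. Markers of airway and immune cells were present at low levels, and AT1 markers at higher ones. A set of 13 club cell markers, gate genes left out, summed to 455 CPM in NAPH and 459 in Control members, against 81005 and 35388 in airway secretory barcodes. A set of 9 ciliated markers summed to 594 and 475 CPM, against 15467 and 20419 in ciliated barcodes, and 10 macrophage and monocyte markers to 33.88 and 12.02 CPM, against 4286 and 6154 in Ptprc-positive barcodes, with Marco and Adgre1 at 0 in both libraries. Lyz2, a gene that AT2 cells share with macrophages, was left out of that sum and stood at 31371 and 36737 CPM in the members. The 8 dendritic markers summed to 586 and 459 CPM, against 14901 and 20413 in Ptprc-positive barcodes. In Control members only 2 of the 8 were detected, with Flt3, Xcr1, Ccr7, Itgax, Clec9a and Il4i1 at 0. The 17 AT1 markers summed to 2930 and 2390 CPM in the members, against 3435 and 2717 in Lrg1-low cells, and Ager gave 1454 and 1033 CPM of this. No AT1 barcodes were set apart to compare with, and the part of these markers in the results was not tested.

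Lrg1-intermediate cells were more frequent in the NAPH library. They made up 31.2% (29.3 to 33.1) of its Sftpc-gated cells and 8.29% (7.05 to 9.67) of those of Control. Lrg1-low cells were 28.8% of gated NAPH and 90.4% of gated Control cells, and Lrg1-high cells were 40.0% and 1.34%. The share of NAPH was thus spread over the bands and that of Control gathered in the lowest. Within the band, Lrg1 itself differed a little between the libraries, with a median of 11.03 per 10000 in NAPH (10.5 raw UMIs, from 2 to 40) and 8.04 in Control (7 raw UMIs, from 3 to 19). NAPH members were also deeper, with a median of 9708.5 UMIs and 2311.5 genes, against 8225.5 UMIs and 1998.5 genes in Control. After each barcode was thinned to 3500 UMIs the members had medians of 1181 genes in NAPH and 1117 in Control, and Lrg1-low cells 1170 and 1114. Thinning moved the Control share of Lrg1-intermediate cells to 11.5%. Lrg1 UMIs were also found in other cells of NAPH. An Lrg1 UMI was present in 34.6% of Ptprc-positive NAPH barcodes (median 7994 UMIs) and 40.5% of ciliated ones (8286 UMIs), and 10 of 379 and 0 of 215 reached 5 per 10000. In Control these shares were 2.93% and 1.54%, and 0 of 341 and 0 of 195 reached it. Airway secretory barcodes, with medians of 22537 UMIs in NAPH and 29439.5 in Control, held an Lrg1 UMI in 86.1% and 22.87%. Of all of them, 25 of 187 in NAPH and 0 of 774 in Control reached 5 per 10000. Other cells thus lay mostly below the band, but the part of free RNA in the low end of the NAPH band was not tested.

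**Figure D1:**
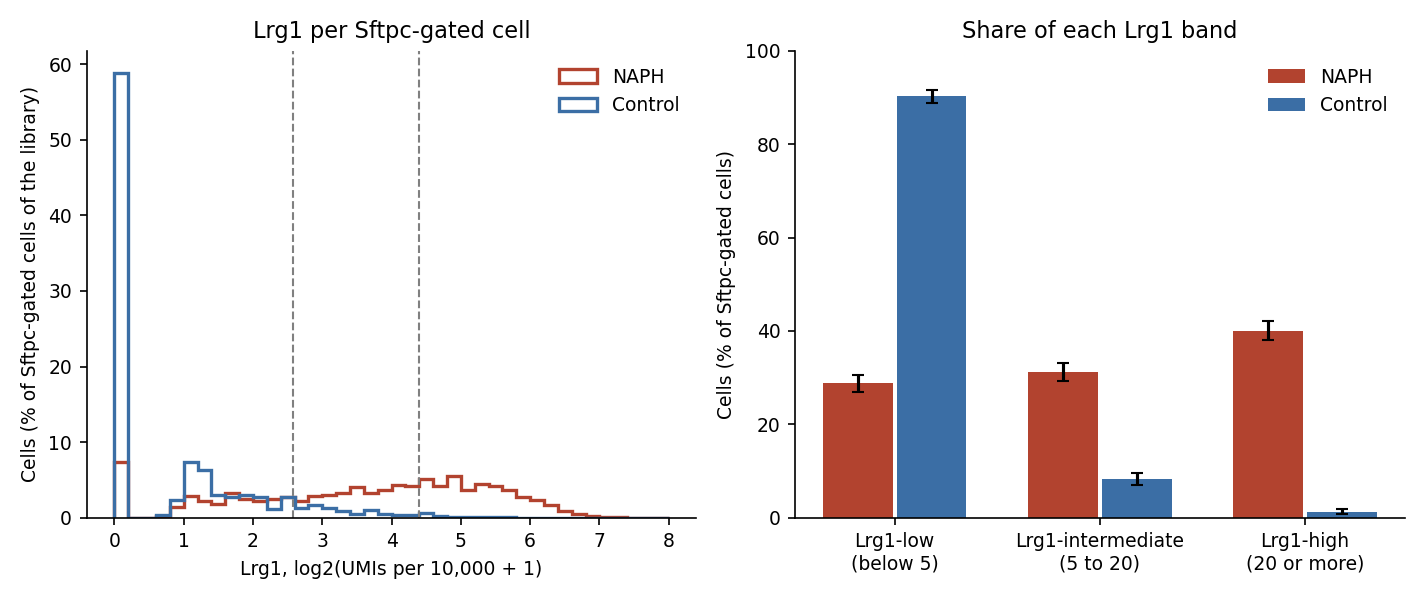
Left, histogram of Lrg1 per Sftpc-gated cell as log2(UMIs per 10000 + 1), in % of each library's gated cells, with dashed lines at 5 and 20 per 10000. Right, share of gated cells in each Lrg1 band with exact binomial 95% intervals; the intermediate band holds 31.2% of NAPH and 8.29% of Control cells.

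Lrg1 levels ran on across both limits of the band without a gap. In NAPH, 63 cells had 5 to 6 Lrg1 UMIs per 10000 and 86 had 4 to 5, while 71 had 18 to 20 and 75 had 20 to 22. In Control these numbers were 29 and 51 at the lower limit and 4 and 8 at the upper. Lcn2 stood at 2006 CPM just inside and 2146 CPM just outside the lower limit in NAPH, and at 1166 and 1342 CPM in Control. Scd1 was higher just inside it, at 9747 against 8364 CPM in NAPH and 4126 against 2953 CPM in Control. Il33 stood at 538 and 499 CPM in NAPH and at 280 and 237.5 CPM in Control, with overlapping intervals. Across the upper limit Lcn2 stood at 4107 CPM just inside and 3436 CPM just outside in NAPH. In Control it stood at 2230 and 1682 CPM, the first of these from 4 cells.

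Set against Lrg1-low cells of the same library, Lrg1-intermediate cells held more RNA of Lcn2, Itih4, Il33, Ptgs1, Lrp2 and Scd1 in both libraries, at 1.56 to 2.63 times the level, and less of Anxa5 and Mrps9, at 0.535 to 0.642 times. A gene was tested when at least 20 UMIs were expected in each band at its pooled level, and called when its CPM ratio was at least 1.5 or at most 1 over 1.5. In NAPH, 9362 genes were tested, of which 2.51% were called higher (235 genes) and 2.77% lower (259). In Control, 4736 were tested, of which 1.67% were called higher (79) and 3.21% lower (152). Over all tested genes the log2 ratio had a median of -0.00 in NAPH and -0.01 in Control. A call did not ask that the interval exclude 1, so calls at few UMIs can lie within counting error. With at least 60 expected UMIs, 16 of 1862 genes tested in Control were called higher and 12 lower. Cells of a library share that library's free RNA, and the bands were cut on Lrg1, so these calls describe what went along with Lrg1.

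Of the acute phase and iron-binding genes, 7 of 12 tested were called higher and 2 lower in NAPH, and 2 of 6 higher and 0 lower in Control, with list medians of 0.60 and 0.44 (log2). Lcn2, the siderophore-binding lipocalin, stood at 2860 CPM in Lrg1-intermediate and 1467 CPM in Lrg1-low NAPH cells, 1.95 times as high (1.902 to 1.998). In Control it stood at 1329 and 776 CPM, 1.71 times as high (1.62 to 1.80). Per cell, Lcn2 had a median of 21.2 UMIs per 10000 in the NAPH members (10th to 90th percentile 7.90 to 52.4), against 10.0 (2.36 to 28.8) in Lrg1-low NAPH cells, so the bands overlapped. The Control medians were 10.4 (3.98 to 23.8) and 5.57 (1.21 to 15.8), which places Control Lrg1-intermediate cells near the Lrg1-low cells of NAPH. Itih4, an inter-alpha-trypsin inhibitor heavy chain of the plasma acute phase, had the largest ratios of the 9 genes named as higher in both libraries. It stood at 317 CPM in Lrg1-intermediate and 139 CPM in Lrg1-low NAPH cells (2.28 times, 2.11 to 2.46) and at 160 and 60.9 CPM in Control (2.63 times, 2.24 to 3.08). At least 1 Itih4 UMI was found in 72.8% of the members and 46.8% of Lrg1-low cells in NAPH, and in 62.8% and 31.5% in Control. Hp, for haptoglobin, stood at 1372 and 913 CPM in NAPH (1.502 times, past the call) and at 964 and 657 CPM in Control (1.47 times, short of it). It is also an airway secretory gene, at 8596 CPM in NAPH airway secretory barcodes. Fgg, for the fibrinogen gamma chain, had 89 UMIs in the NAPH members and 8 in Lrg1-low NAPH cells (9.20 times, 4.47 to 21.96), but 5 UMIs in Control members, too few to test. Cp and Ltf were the 2 called lower in NAPH, with 22 and 45 UMIs in the members, and the highest barcode held 44.3% and 64.4% of their UMIs in Lrg1-low cells.

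Promoters were searched for the genes named as higher in both libraries and for the given markers. Other acute phase genes, such as Fgg and Hp, were not searched. Those of Lrg1, Lcn2 and Itih4 are shown because the liver acute phase works through STAT3. Lcn2 and Itih4 went with Lrg1, the gene by which the bands were cut. The 250 bases before the start (RefSeq, GRCm38.p6) were searched on both strands for TTCNNNGAA, the form of a STAT site, and for 1 form of NF-kB site. Of 13 genes looked for (Napsa, Scd1 and Sftpc were not matched), 10 were in the table. The STAT form was in 1 of them and the NF-kB form in 0, and 7.02% and 1.41% of all 32851 promoters hold them. The match lies in Itih4 from -51 to -43 and is in capitals below. The Itih4 window is chr14:30886226-30886475 on the plus strand, the Lrg1 window chr17:56121947-56122196 on the minus strand and the Lcn2 window chr2:32387740-32387989 on the minus strand. A match is a string of letters and no evidence of binding, and the windows without one say nothing of either factor.
Itih4: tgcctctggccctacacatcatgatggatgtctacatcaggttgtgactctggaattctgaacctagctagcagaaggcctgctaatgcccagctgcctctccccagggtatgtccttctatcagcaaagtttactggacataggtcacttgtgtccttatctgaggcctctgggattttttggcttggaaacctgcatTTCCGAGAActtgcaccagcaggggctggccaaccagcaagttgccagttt
Lrg1: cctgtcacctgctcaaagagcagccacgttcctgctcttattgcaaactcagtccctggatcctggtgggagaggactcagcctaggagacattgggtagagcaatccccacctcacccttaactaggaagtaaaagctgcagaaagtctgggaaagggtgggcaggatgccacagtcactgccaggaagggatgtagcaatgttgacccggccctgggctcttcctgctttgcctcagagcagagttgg
Lcn2: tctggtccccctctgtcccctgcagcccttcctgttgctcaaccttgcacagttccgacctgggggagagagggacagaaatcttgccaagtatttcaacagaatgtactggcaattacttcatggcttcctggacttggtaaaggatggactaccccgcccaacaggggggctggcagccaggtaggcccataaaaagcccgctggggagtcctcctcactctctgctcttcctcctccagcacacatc

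Il33, which encodes the alarmin interleukin-33, followed the same order. It stood at 732 CPM in Lrg1-intermediate and 360 CPM in Lrg1-low NAPH cells (2.04 times, 1.94 to 2.14), and at 301 and 158 CPM in Control (1.90 times, 1.70 to 2.13). Il33 UMIs were found in 94.0% of NAPH members and 82.2% of Lrg1-low NAPH cells, and after thinning in 78.5% and 56.7%. Among genes of the interleukin-6, oncostatin M and STAT3 pathway 2 of 18 tested were called higher and 1 lower in NAPH, and 3 of 11 higher in Control, with medians of 0.10 and 0.38. Pim1, a kinase gene induced by STAT3, was called in both, at 71.6 and 40.3 CPM in NAPH and 44.9 and 17.9 CPM in Control. Ptprc-positive barcodes held Pim1 at 263 CPM in NAPH and 244 CPM in Control. The receptor genes Osmr and Il6st were called in Control only (1.65 and 1.56 times), against ratios of 1.36 and 1.05 in NAPH. That difference between libraries was not tested. Socs3, the feedback inhibitor, stood at 60.1 and 41.3 CPM in NAPH (1.46 times) and at 25.6 and 18.3 CPM in Control (1.40 times), short of the call in both.

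The fatty acid synthesis list had medians of 0.27 over 18 genes in NAPH and 0.30 over 14 genes in Control, with Scd1 the 1 gene called in each. Scd1, for stearoyl-CoA desaturase, which makes monounsaturated fatty acids, stood at 10823 and 6957 CPM in NAPH (1.56 times, 1.54 to 1.57) and at 4555 and 2548 CPM in Control (1.79 times, 1.74 to 1.84). Fasn, the fatty acid synthase, stood at 939 and 656 CPM in NAPH and 702 and 484 CPM in Control, ratios of 1.43 and 1.45. Elovl1, a fatty acid elongase, had ratios of 1.42 and 1.46. Both lay short of the call. Scd1 in NAPH was near the limit too, at 1.49 times after thinning and 1.41 times with the band held to 5 to 10. Mfsd2a, a transporter of lysophosphatidylcholine, was found in 42.9% of the members and 17.2% of Lrg1-low cells in NAPH, and in 15.5% and 2.85% in Control. It stood at 73.1 and 27.9 CPM in NAPH (2.62 times, 2.21 to 3.13) and at 28.8 and 4.53 CPM in Control (6.37 times, 4.08 to 9.84). With 36 UMIs in Control members it was under the expected-count limit there. The mevalonate and cholesterol list had medians of 0.17 and 0.26, with 1 gene called higher of 23 in NAPH (Sc5d) and 1 of 19 in Control (Mvk).

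Several other genes were called higher in both libraries. Lrp2, the endocytic receptor megalin, stood at 194 and 108 CPM in NAPH and 149 and 71.9 CPM in Control (1.80 and 2.07 times). Ptgs1, for cyclooxygenase-1, stood at 259 and 124 CPM in NAPH and 115 and 64.5 CPM in Control (2.08 and 1.78 times). Tgoln1, a trans-Golgi network protein gene, had ratios of 1.56 and 1.81, Cd302, a C-type lectin receptor gene, 1.65 and 1.81, and Serpine2, a serine protease inhibitor gene, 1.55 and 1.66. With the band held to 5 to 10 these 3 fell short in NAPH, at 1.38, 1.44 and 1.34 times, and Serpine2 also after thinning (1.41). Serpine2 stood at 133 CPM in NAPH and 194 CPM in Control ciliated barcodes, against 84.1 and 55.3 CPM in the members. Cd302 stood at 91.3 and 132 CPM in Ptprc-positive barcodes, against 126.9 and 84.9 CPM in the members. The naming rule passed over 8 more genes called higher in both, by low level or by high level in another cell type. These were Hdc, Sema4a, Dmkn, Isyna1, Retnla, Pim1, Tmem178 and Pcx. Ciliated barcodes held Hdc, which makes histamine, at 906 CPM in NAPH and 1090 CPM in Control, and Dmkn at 648 and 754 CPM. Hdc stood at 244 CPM in the members and 118 CPM in Lrg1-low cells of NAPH, and at 197 and 93.1 CPM in Control. In Control members 1 barcode held 32.6% of the Dmkn UMIs and 1 held 17.0% of those of Retnla, so these 2 ratios rest partly on single cells.

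The identity markers were not called in either library. Sftpc stood at 208768 CPM in Lrg1-intermediate and 218952 CPM in Lrg1-low NAPH cells, and at 236157 and 241355 CPM in Control. Napsa stood at 2157 and 2068 CPM in NAPH and 1783 and 1888 CPM in Control, ratios of 1.04 and 0.945. S100g stood at 2937 and 3231 CPM in NAPH and 2588 and 2420 CPM in Control, ratios of 0.909 and 1.07, on opposite sides of 1. Among 18 surfactant and lamellar body genes tested in each library Scd1 was the 1 called, with list medians of 0.16 in NAPH and 0.03 in Control. Lamp3 had ratios of 1.24 and 1.25, Abca3, the lipid pump of the lamellar body, 1.14 and 1.12, and Sftpb 1.09 and 1.002.

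**Figure D2:**
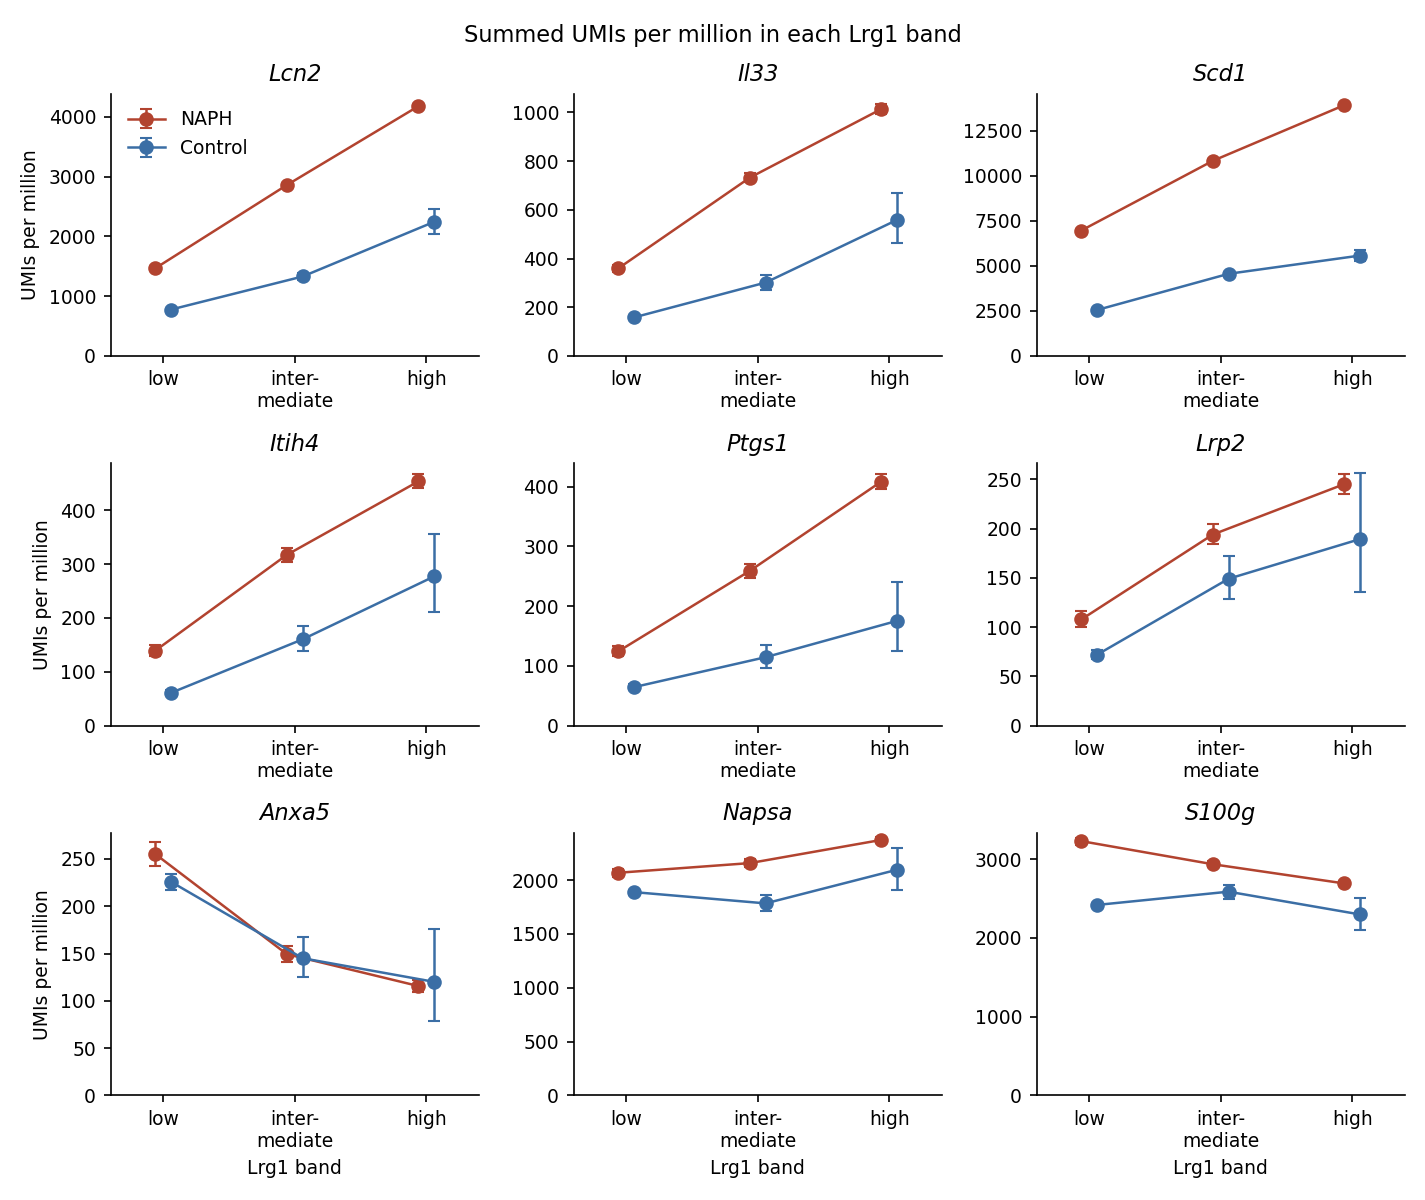
Summed UMIs of 9 genes as CPM in the low, intermediate and high Lrg1 bands of NAPH and Control, each axis from 0, with exact Poisson 95% intervals. Lcn2 stood at 2860 CPM in NAPH and 1329 CPM in Control intermediate cells; Napsa and S100g differed by less than 1.5 times between the intermediate and low bands, and Anxa5 was lower in the intermediate than in the low band.

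Genes of the transitional epithelium, the state between AT2 and flat AT1 cells, had list medians below 0. Of these, 3 of 19 tested were called lower and 0 higher in NAPH, and 3 of 15 lower and 0 higher in Control, with medians of -0.41 and -0.37. The gate had taken out cells rich in Areg and Sprr1a, which belong to that state. The 3 called lower in NAPH were S100a6, Cyr61 and F3, and those in Control were Krt19, Lgals3 and Anxa1. S100a6, a calcium-binding protein gene, stood at 54.0 and 166 CPM in NAPH (0.326 times, 0.289 to 0.366) and at 107 and 160 CPM in Control (0.673 times), where 1 member held 36.6% of its UMIs. Krt7 stood at 83.4 and 120 CPM in NAPH (0.694 times) and 48.1 and 72.0 CPM in Control (0.667 times). Krt8, the keratin most used for that state, had ratios of 0.823 and 0.785. Lgals3, for galectin-3, stood at 121 and 167 CPM in NAPH and 68.9 and 122 CPM in Control. AT1 markers had medians of -0.38 over 14 genes in NAPH, with 4 lower and 0 higher, and -0.21 over 9 genes in Control, with 1 lower (Clic5) and 1 higher (Vegfa). Hopx, a transcription cofactor gene of AT1 cells, was among the 4, at 3.88 and 8.42 CPM in NAPH.

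Anxa5, for annexin A5, stood at 149 CPM in Lrg1-intermediate and 255 CPM in Lrg1-low NAPH cells (0.585 times, 0.542 to 0.632) and at 145 and 226 CPM in Control (0.642 times, 0.550 to 0.747). Ciliated barcodes held Anxa5 at 383 CPM in NAPH and 232 CPM in Control. Ptprc-positive ones held it at 218 and 313 CPM, and airway secretory ones at 113 and 57.7 CPM. Mrps9, a mitochondrial ribosome gene, stood at 29.3 and 51.7 CPM in NAPH and at 35.3 and 65.9 CPM in Control (0.568 and 0.535 times). After thinning the Control ratios were 0.716 and 0.691, short of the call. These were the 2 genes that the naming rule took as lower in both libraries, of 18 called. The other 16 were Kcnk2, Gsn, Rin2, Dclk1, Chil3, Tmod1, Fry, Ndnf, Mxd1, 8430408G22Rik, Ehd2, Timp3, Myh7, Plscr3, F2rl1 and Scx. Ndnf, which encodes a secreted neurotrophic factor, stood at 29.3 and 52.96 CPM in NAPH and at 12.02 and 36.5 CPM in Control, where the members had 15 UMIs. Chil3, a macrophage gene at 1686 CPM in Ptprc-positive Control barcodes, had 0 UMIs in Control members and 366 in Control Lrg1-low cells, and in Lrg1-low NAPH cells 1 barcode held 71.6% of its UMIs.

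Among other lists, class II antigen presentation genes had medians of -0.21 in NAPH and -0.16 in Control with 0 called, and unfolded protein response genes 0.20 and 0.22, with Chac1 called higher in NAPH and Ddit4 lower in Control. Bex, lysozyme and other genes of resting AT2 cells had medians of -0.29 in each library, with 2 of 13 called lower in NAPH (Ndnf and Anxa5) and 3 of 13 in Control (these and Bex1). NRF2 and glutathione genes had medians of -0.03 and -0.10, with 0 called in NAPH and Gclc called higher in Control. Gclc, the catalytic subunit of the first enzyme of glutathione synthesis, stood at 612 and 431 CPM in NAPH (1.42 times) and at 286 and 175 CPM in Control (1.63 times). Club cell markers had a median of -1.0 in NAPH, where 7 of 10 were called lower. These markers summed to 455 CPM in NAPH members, against 1207 CPM in Lrg1-low NAPH cells, where 1 barcode held 79.5% of the Scgb3a1 and 95.5% of the Reg3g UMIs. Neutrophil markers S100a8 and S100a9 were called higher in the NAPH members, where 1 barcode held 73.0% and 69.9% of their UMIs.

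Calls shared between the libraries could be counted, since they come from separate cells. Of 4736 genes tested in both, 18 were called higher in both, Lrg1 among them, which is 66.7% of the 27 called higher in NAPH and 22.8% of the 79 called higher in Control. Another 18 were called lower in both, 62.1% of 29 in NAPH and 11.8% of 152 in Control, and 0 were called in opposite directions. Of all 4736 genes, 1.67% were called higher and 3.21% lower in Control. At these shares few of the 27 and 29 genes called in NAPH would be called opposite anyway, so the 0 tells little. The 78 genes called higher in Control, Lrg1 left out, had NAPH ratios above 1 in 61 cases, with a median of 0.26 (log2), beside 2293 of all genes tested in both and a median of -0.01. The 152 called lower in Control had NAPH ratios above 1 in 42 cases, with a median of -0.12.

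**Figure D3:**
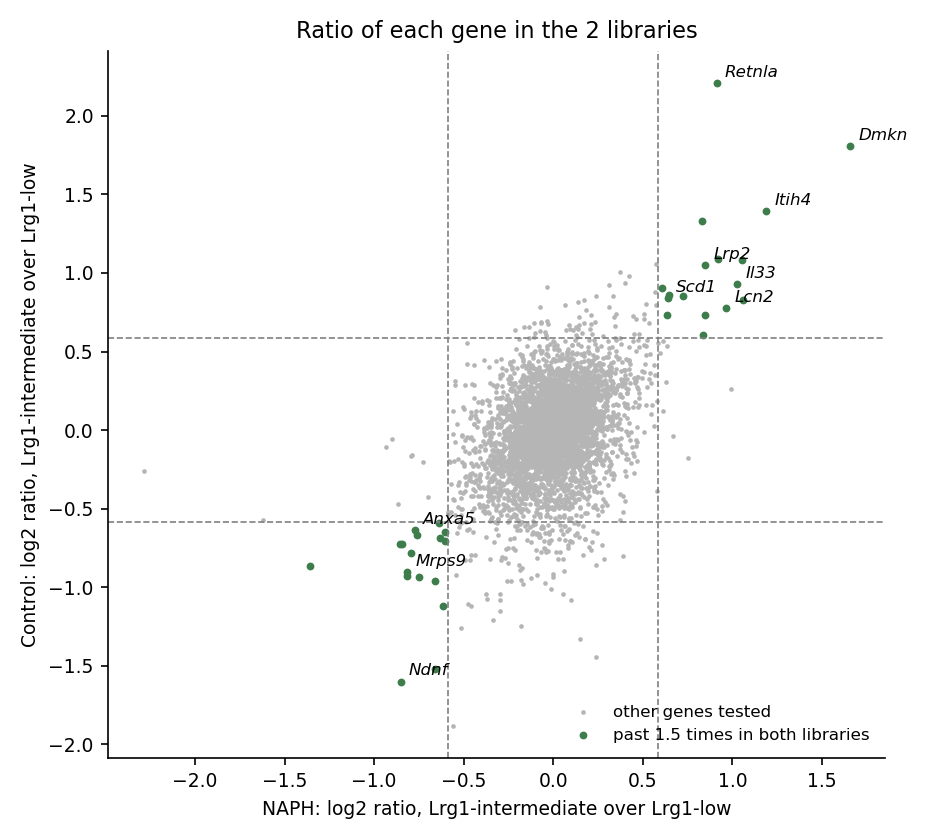
Log2 CPM ratio of Lrg1-intermediate over Lrg1-low cells for each gene tested in both libraries, NAPH on the horizontal and Control on the vertical axis, with dashed lines at 1.5 times in either direction. Lrg1 and Chil3 (0 UMIs in Control members) are not drawn; the genes past both lines in green lie in the upper right and lower left corners and none lies in the other corners.

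The 78 genes that Control cells had chosen were then summed in each cell of NAPH. The sum had a median of 111 UMIs per 10000 in Lrg1-low, 195 in Lrg1-intermediate and 269 in Lrg1-high NAPH cells. Of the NAPH members, 12.1% lay at or below the Lrg1-low median and 22% at or above the Lrg1-high median, so the members lay between the other bands and overlapped both. Scd1 and Lcn2 gave 64.8% of the sum in the NAPH members. In Control, where the genes were chosen, the medians were 54.6, 96.2 and 135, below the NAPH median of the same band in each case.

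**Figure D4:**
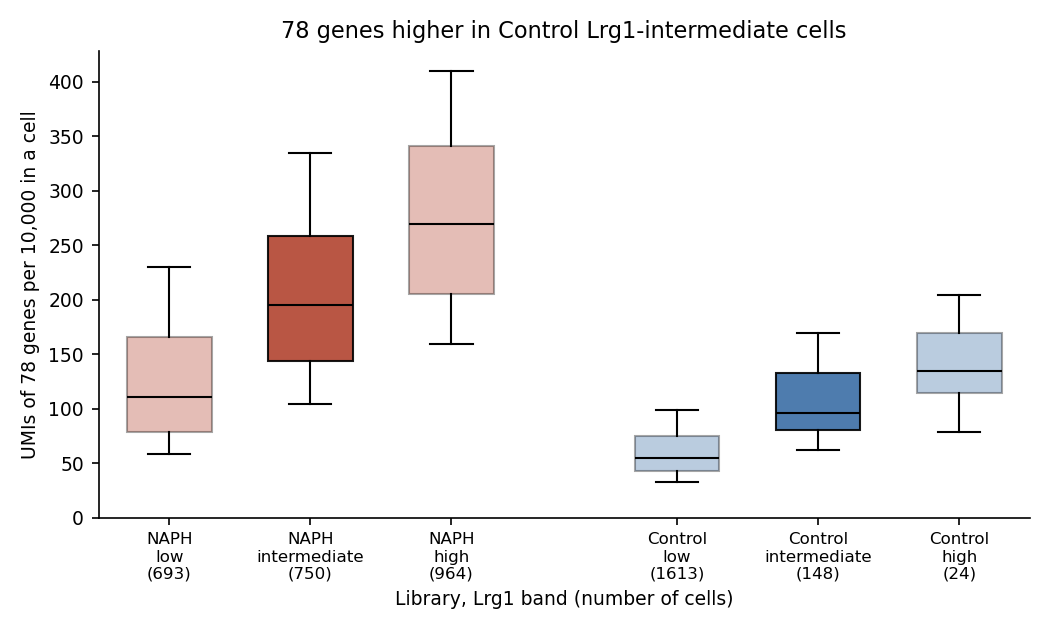
UMIs per 10000 of the 78 genes called higher in Control Lrg1-intermediate cells, summed in each cell, by library and Lrg1 band (number of cells in parentheses). Boxes show quartiles and median, whiskers reach to the 10th and 90th percentile; NAPH medians are 111, 195 and 269 from low to high, and the Control cells shown are those that chose the genes.

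Inside the band, Lcn2 and Itih4 were higher at the highest than at the lowest step of Lrg1 in both libraries, with some neighbouring steps within counting error. From 5 to 8, 8 to 12 and 12 to 20 Lrg1 per 10000 there were 193, 222 and 335 NAPH cells and 72, 40 and 36 Control cells. Lcn2 stood over these steps at 2268, 3012 and 3080 CPM in NAPH and at 1087, 1412 and 1692 CPM in Control. The intervals of the last 2 NAPH steps overlap (2940 to 3085 and 3021 to 3139). Il33 stood at 535, 750 and 827 CPM in NAPH and at 262, 339 and 333 CPM in Control, where the last 2 intervals overlap (281 to 406 and 272 to 404). Itih4 stood at 240, 269 and 390 CPM in NAPH and at 126, 178 and 205 CPM in Control. The first 2 NAPH intervals overlap (218 to 263 and 248 to 291), as do neighbouring ones in Control, where the lowest step (98.7 to 157.9) and the highest (158 to 262) nearly touch. Napsa stood at 2226, 2079 and 2171 CPM in NAPH and at 1713, 1866 and 1824 CPM in Control. At each step the NAPH cells held more Lcn2 than Control cells of about the same Lrg1, which at the first step stood at 648 CPM in NAPH and 630 CPM in Control.

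The members were then set against Lrg1-high cells of the same library. Over Lrg1-high cells, 2.25% of 9612 genes tested in NAPH were called higher in the members (216) and 1.69% lower (162). In Control, with 24 Lrg1-high cells, 3.76% of 983 genes were called higher (37) and 2.44% lower (24). Scaling by TMM, a trimmed mean of gene ratios, made these 75 and 15. Of 358 genes at least 1.5 times as high in Lrg1-high as in Lrg1-low NAPH cells, 311 (86.9%) had a level between the 2 in the members, with a median position of 0.61 on the log scale from low (0) to high (1). Of 520 genes at most 1 over 1.5 times, 446 (85.8%) lay between, at a median position of 0.53. This was counted in NAPH alone. The genes were picked, out of 9297 tested, by the high and low levels of these same cells. A level between those 2 was thus likely in advance, and the counts are no support for a middle state. In Control Serpine2 stood at 33.2, 55.3 and 32.3 CPM from low to high, the last from 7 UMIs in 24 cells. In NAPH Lcn2 stood at 4179 CPM in Lrg1-high cells, Il33 at 1014, Scd1 at 13914 and Itih4 at 453. Acute phase genes had a median of -0.48 against Lrg1-high NAPH cells, with 3 of 13 called lower (Orm2, Fgg and Orm1) and 1 higher (Saa3). Of 16 NF-kB targets and chemokines tested, 3 were called lower in the members (Ccl20, Cxcl1 and Cxcl2) and 1 higher (Tnfaip3), with a median of -0.05. Cxcl1 and Cxcl2 stood at 8.44 and 4.15 CPM, against 16.4 and 7.89 CPM in Lrg1-high cells. S100a6 stood at 54.0 CPM in the members and 31.0 CPM in Lrg1-high cells, against 166 CPM in Lrg1-low cells.

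Members of the 2 libraries were also set against each other. NAPH members held more RNA of Slc26a4, Pmvk, Slpi, Il33 and Scd1 than Control members, at 2.38 to 8.27 times the level, and less of Pon1, Bex2 and Lyz1, at 0.171 to 0.413 times. Of 4951 genes tested 9.11% were called higher in NAPH (451) and 1.88% lower (93), and the median ratio of all genes was 1.09 (0.12 on the log2 scale). Relative to that median, 280 were higher and 158 lower, and TMM scaling gave 334 and 129. In Lrg1-low cells, 6.19% of 9343 genes were called higher in NAPH (578) and 2.74% lower (256), with a median log2 ratio of 0.11, and relative to it 351 were higher and 414 lower (350 and 416 by TMM). The ratios below are plain CPM ratios, to be read against that median.

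Slc26a4, for the anion exchanger pendrin, had the largest ratio of the genes named by rule, at 72.8 CPM in NAPH members and 8.81 CPM (11 UMIs) in Control members (8.27 times, 4.58 to 16.66). Pmvk, the phosphomevalonate kinase, stood at 684 and 152 CPM (4.49 times, 3.88 to 5.22), and Slpi, a secreted protease inhibitor, at 285 and 75.3 CPM (3.79 times, 3.08 to 4.71). Over Lrg1-low cells of their own library these 3 had ratios of 2.07, 1.46 and 1.99 in NAPH. In Control the ratios were 1.233 (Slc26a4, too few UMIs to test), 1.233 and 1.197, short of the call. Cd14, the co-receptor for bacterial lipopolysaccharide, had a NAPH over Control ratio of 2.69, the integrin gene Itga7 2.72, Mfsd2a 2.54, the fumarate hydratase gene Fh1 2.43 and Btg3 2.41. With the band held to 8 to 16 the ratio of Itga7 was 1.53. Airway secretory barcodes held Cd14 at 132.8 CPM in NAPH and 72.6 CPM in Control, above the members (75.5 and 28.0 CPM). Il33 stood at 732 and 301 CPM (2.43 times, 2.19 to 2.71), Scd1 at 10823 and 4555 CPM (2.38 times, 2.31 to 2.44), and Lcn2 at 2860 and 1329 CPM (2.15 times, 2.05 to 2.26). In Lrg1-low cells the NAPH over Control ratios of these 3 were 2.27, 2.73 and 1.89. Gclc stood at 612 and 286 CPM (2.14 times).

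Pon1, for a paraoxonase, had the lowest ratio of the named genes, at 12.7 CPM in NAPH and 74.5 CPM in Control members (0.171 times, 0.127 to 0.230). Airway secretory barcodes held it at 157 CPM in NAPH and 297 CPM in Control. The airway gene Scgb1a1 had medians of 25.29 per 10000 in NAPH and 128.8 in Control members. The part of free airway RNA in the Pon1 ratio was not tested. Bex2 stood at 184 and 499 CPM (0.369 times, 0.336 to 0.407), with at least 1 UMI in 44.5% of NAPH and 79.1% of Control members. Bex4 stood at 339 and 585 CPM (0.579 times). Lyz1 stood at 1580 and 3828 CPM (0.413 times, 0.399 to 0.427), and it was unevenly spread, with a median of 0 per 10000 in NAPH and 0.903 in Control and single cells of up to 519 and 473. The other genes named as lower were Igfbp6 (0.393), Lpl for lipoprotein lipase (0.459), Cst8 (0.484), Vsig2 (0.4998), the carboxylesterase gene Ces1d (0.524), Sowahc (0.530) and the neuritin gene Nrn1 (0.545). Ces1d stood at 537 CPM in NAPH and 611 CPM in Control airway secretory barcodes, above the members (185 and 352 CPM). Lpl stood at 137 and 245 CPM in Ptprc-positive barcodes, against 23.2 and 50.5 CPM in the members. Bex, lysozyme and esterase genes have near copies, and the labels do not say how reads were split among them.

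By list, type 2 response genes had a median of 1.25 (log2) in NAPH over Control members, with 5 of 6 tested called higher. Of these Retnla, a resistin-like secreted protein gene, stood at 1282 and 151 CPM, but at 17633 CPM in NAPH airway secretory barcodes, so it was within reach of free RNA, and Il4ra stood at 32 and 12.8 CPM. Transitional epithelium genes had a median of 0.74, with 9 of 15 called higher and S100a6 lower. The S100a6 call rests partly on 1 Control member, which held a large part of its UMIs. Over Lrg1 steps of 5 to 8, 8 to 12 and 12 to 20, S100a6 stood at 181.8, 43.13 and 38.46 CPM in Control. In NAPH it stood at 56.02, 46.1 and 57.95 CPM, so it was lower than in Control at the lowest step only. Anxa1 (86.1 and 33.7 CPM), Clu (243 and 120 CPM) and Krt8 (188 and 120 CPM) were among the 9. Relative to the median gene Krt8 was at 1.44 times and no longer called, and the other 8 were at 1.53 to 2.35 times. Against Lrg1-low cells the same list had medians below 0 in either library. Acute phase genes had a median of 0.61, with 3 of 6 higher, NF-kB targets 0.57, with 3 of 7 higher and 1 lower, and mevalonate genes 0.25, with 6 of 22 higher. Relative to the median gene, Birc3 of the NF-kB targets (1.44 times) and 5 of these 6 mevalonate genes (Cyp51, Dhcr7, Mvd, Nsdhl and Sc5d, 1.38 to 1.496 times) were no longer called, and Pmvk was at 4.13 times. Bex, lysozyme and resting genes had a median of -0.53, with 5 of 12 lower and 1 higher (Ndnf). Surfactant and lamellar body genes had a median of 0.04, with 3 of 18 higher (Scd1, Muc1 and Sftpd). Muc1 and Sftpd were at 1.46 and 1.43 times relative to the median gene, short of the call.

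**Figure D5:**
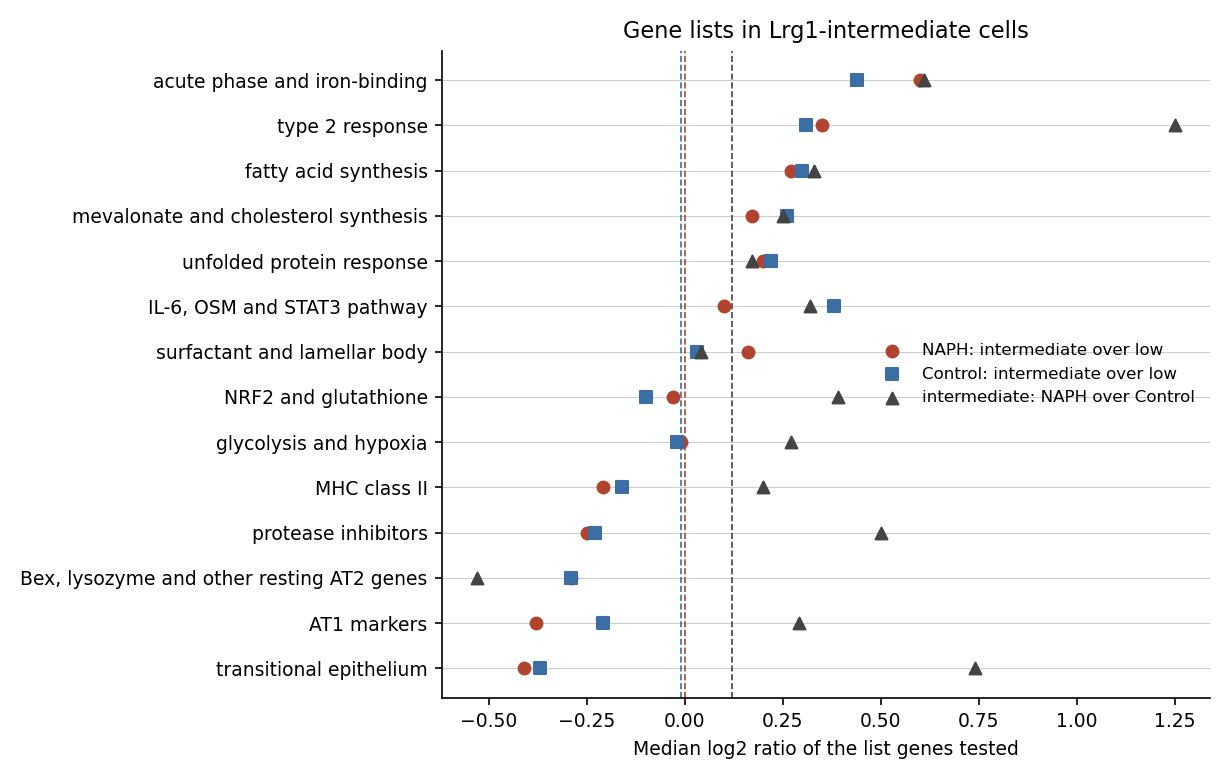
Median log2 CPM ratio of 14 gene lists in Lrg1-intermediate over Lrg1-low NAPH cells (circles), in the same contrast in Control (squares) and in NAPH over Control members (triangles). Dashed lines give the median of all genes tested in each; transitional epithelium genes lie at -0.41, -0.37 and 0.74.

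Of the 451 genes called higher in NAPH members, 129 (28.6%) were also called higher in NAPH among Lrg1-low cells, which is 62.9% of the 205 so called there of the 4951 genes tested in both. Of the 93 called lower, 26 (28.0%) were also lower in Lrg1-low cells, 65% of the 40 so called. The members have fewer Control UMIs (1248293, against 12594033 in Lrg1-low cells), and the part of counting error in the calls not held in common was not tested.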

How the data were processed

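Raw UMI counts of 28692 genes in each barcode were deposited by the authors, and per the submitters' processing notes Cell Ranger and the mm10 genome were used. Its version and its rule for calling cells are not stated there. All other values were computed from these counts. UMIs were summed per Lrg1 band and library, scaled to CPM and compared as ratios with exact conditional Poisson 95% intervals, in Python 3.11.15 with scipy 1.17.1. TMM factors came from edgeR 4.0.16 (R 4.3.3). Doublets were scored with Scrublet in scanpy 1.11.5 and kept, and the barcodes of highest score, at 0.8% per 1000 barcodes, were left out in an alternative. The ratio step was checked on simulated counts.

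Named genes had at least 50 CPM in a band of each library (in 1 library for NAPH over Control). They were the 12 highest and 12 lowest calls shared by the libraries, of which 9 and 2 existed, and the 10 highest and 10 lowest NAPH over Control calls among the members. Gate genes, ribosomal, mitochondrial, sex-linked and predicted genes were passed over, as were genes below 0.2 times their level in airway secretory, ciliated or Ptprc-positive barcodes. The given markers, 10 genes of earlier results and extremes of the lists were also named. Genes given in the text outside this rule were chosen after their values were seen. The bands, the 36 gene lists and the naming rule were chosen with earlier results of these data known. Of 11 planned and 4 added alternatives, the added ones were chosen after seeing the data.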

Additional observations from a re-analysis of the deposited data

How the results depend on the processing

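No paired analysis was possible because each group is 1 library. Each count, share, named gene and list median was recomputed under 11 planned settings and 4 chosen after seeing the data. Of the recomputed ratios of named genes 1307 lay within the counting interval of the reported value and 156 outside it, and 0 of those called changed direction. Of counts and shares 137 were within 1.5 times or within their interval and 49 moved.

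The share of Lrg1-intermediate cells depended on where the band was cut. It was 16.83% in NAPH and 3.641% in Control for a band of 8 to 16, and 12.88% and 5.546% for 5 to 10 (added). After thinning to 3500 UMIs it was 11.45% in Control.

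Counts of called genes depended most on the expected UMIs asked for. Fewer or more genes are then tested, but the share called changed as well. A call asks for a ratio and not for an interval that excludes 1. The part of counting error in calls at few UMIs was not tested. With at least 5 and at least 60 expected UMIs, 623 and 80 genes were higher and 726 and 56 lower in intermediate over low NAPH cells. In Control 467 of 8826 and 16 of 1862 genes tested were higher, and 854 and 12 lower. Against Lrg1-high cells 752 and 32 were higher and 441 and 50 lower in NAPH, and 496 and 1 higher and 304 and 5 lower in Control. For NAPH over Control they were 1379 and 111 higher and 435 and 19 lower among members, and 1044 and 255 higher and 629 and 86 lower among Lrg1-low cells.

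For the other settings the cause was not tested either. The band of 5 to 10 gave 111 genes higher over low NAPH cells, 94 lower in Control and 127 higher over Lrg1-high NAPH cells. The band of 8 to 16 gave 82 lower in Control, and 253 higher and 49 lower for NAPH over Control. Thinning gave 86 lower in Control and 19 higher over Lrg1-high Control cells. Without the top barcode of each gene (added) 260 were lower in Control, 88 higher and 7 lower over Lrg1-high Control cells, and 58 lower for NAPH over Control. TMM scaling gave 75 higher and 15 lower over Lrg1-high Control cells, and 350 higher and 416 lower for NAPH over Control among Lrg1-low cells. Relative to the median gene (added) these were 351 and 414, and among members 280 and 158.

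List medians moved by more than 0.1 in 274 cases (1669 did not) and, among medians past 1.5-fold, changed sign in 4, all of club markers in NAPH over Control Lrg1-low cells (0.74). It was -0.68 for barcodes of 6000 to 15000 UMIs, -0.67 with Sftpc at least 1000, -0.46 with Lrg1 below 2 and -0.45 without the top barcode of each gene. Gclc in Control fell short of its call after thinning (1.364) and for the band of 5 to 10 (1.495). Depth limits Control, whose 148 members leave 4736 genes tested, against 9362 in NAPH.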

Other observations

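Of 16 p53 target genes tested in NAPH, 3 were called lower in Lrg1-intermediate than in Lrg1-low cells and 0 higher (median -0.28, log2), namely Gdf15, Plk2 and Phlda3, beside 2.77% of all genes called lower. In Control 8 were tested, with a median of 0.06 and 0 calls. The difference between the libraries was not tested. Plk2, a stress-induced kinase gene, stood at 10.71 and 21.22 CPM in NAPH. Of prostaglandin and leukotriene genes, Ptges, which makes prostaglandin E2, joined Ptgs1 in NAPH at 65.6 and 40.01 CPM (1.64 times). In Control it stood at 40.05 and 10.8 CPM, with 50 UMIs in the members, too few to test.

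The complement gene C3 stood at 87.04 and 60.09 CPM in NAPH (1.448 times) and at 98.5 and 61.4 CPM in Control (1.605 times, called), and NAPH members held 0.883 times the level of Control members. Of 17 ion and water transport genes tested in NAPH, 2 were called higher (Slc26a4 and Kcnq1) and 2 lower (Ano1 and Slc4a4), with a median of -0.07. Kcnq1, a potassium channel gene, stood at 24.2 CPM in Lrg1-intermediate and 12.15 CPM in Lrg1-low NAPH cells (1.995 times), and Ano1, a chloride channel gene, at 8.57 and 16.2 CPM (0.529 times). Il6 had 45 UMIs in NAPH members, of 7468227 in all, and 0 in Control members, of 1248293, too few to test between the libraries. Between the libraries, Tgfb1 stood at 20.62 CPM in NAPH and 4.005 CPM in Control members (5 UMIs), and Nfkbia, the inhibitor of NF-kB, at 74.6 and 39.25 CPM (1.9 times). S phase, heat shock and class I antigen presentation lists had 0 calls in NAPH over Lrg1-low cells but for Cryab, which was lower.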
